A study of Mus musculus with 8 samples.

Results

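The Kv5, Kv6 and Kv9 genes encode 8 of the electrically silent subunits of voltage-gated potassium (Kv) channels, and their transcripts were followed in the mouse retina. They are Kcnf1 (Kv5.1), Kcng1 to Kcng4 (Kv6.1 to Kv6.4) and Kcns1 to Kcns3 (Kv9.1 to Kv9.3). They were found by gene symbol, and all 8 of the 8 were among the 26824 genes of the count table. Gene expression was measured by RNA sequencing of total RNA from whole retina in 3 libraries labelled WT (wild type) and 5 labelled KO, whose genotype is given as Kv8.2 knockout. Each library came from the 2 retinas of a mouse aged 1 month, kept untreated on a light and dark cycle. The labels give neither the strain nor the knockout allele, so which part of the gene was removed is not known here. The authors left out 2 of the KO samples, which are not named, and tested 3 of each group. All 8 libraries were used here.

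A Kv channel is a tetramer of alpha subunits around a potassium-selective pore. Silent subunits have the sequence of a Kv alpha subunit but do not form a working channel by themselves. They join subunits of the Kv2 family in mixed tetramers, and change the voltage range, the speed of gating or the size of the Kv2 current. Kv8.2, encoded by Kcnv2, is the silent subunit of the photoreceptor inner segment, where it is part of the channel that carries the outward potassium current of rods and cones. Loss of KCNV2 in people causes a cone dystrophy with supernormal rod response. The comparison of WT with KO asks which other silent subunits differ where Kv8.2 is labelled as lost.

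The libraries held 17759146 to 25188870 counts. Kcnv2 itself was present in every library, at 518 to 550 CPM (counts in each 1000000, after TMM scaling of the libraries) in WT, while those labelled KO 2 to KO 6 held 584, 447, 398, 408 and 409 CPM. KO 2 was above every WT library and the other 4 were below. The log2 fold change of -0.24 was not called (edgeR adjusted p 0.275), but it was called without KO 2 (-0.35, edgeR adjusted p 0.0298), in KO 4 to KO 6 against WT (-0.38, edgeR adjusted p 0.000116) and by limma voom (-0.36, adjusted p 0.00116). The fit without KO 2 called 1248 of 20026 genes lower, and the last 2 fits called 20.5% and 20.6% of all genes lower. Kcnv2 was called in 3 of 32 alternatives, and with KO 2 and KO 3 alone against WT it was at -0.04 (edgeR adjusted p 0.903). Since the transcript was not absent from any library, the name KO stands for the label only. KO 4, KO 5 and KO 6 were close to each other (chi-square per degree of freedom 5.38 to 6.28 between their counts, against 7.41 to 15.7 within WT). KO 2 and KO 3 differed from those 3 (38.8 to 100) and from each other (96), so they are not one kind of library. In KO 4 to KO 6 mitochondrial genes took 3.03% to 3.7% of their counts, against 5.23% and 6.52% in KO 3 and KO 2 and 7.09% to 7.92% in WT. Results are also given for KO 2 and KO 3 alone against WT. Lens transcripts took 5.02% of the counts of KO 3 and at most 0.171% elsewhere. WT 3 held 2132 counts of the Y-linked gene Ddx3y and the others at most 3.

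Of the 8 silent subunit genes, 2 rose in KO, Kcng1 (2.94-fold) and Kcng4 (1.47-fold), and 0 fell. Both belong to the Kv6 family. Each of the 4 Kv6 genes had a higher mean in KO, with log2 fold changes of 0.56 to 1.56, while the 3 Kv9 genes lay between -0.42 and 0.36 and Kcnf1 was at 0.19. Over all genes tested, 4.74% were called higher and 2.84% lower (quasi-likelihood test of edgeR, called at a Benjamini-Hochberg adjusted p under 0.05). That is 956 higher and 573 lower (62.5% of the calls higher), while library size alone in place of TMM gave 566 higher and 787 lower (41.8% higher). For the count of 0 lower, 0 of the members reached an unadjusted p under 0.05 in that direction with edgeR, and DESeq2 (which gave no adjusted p for Kcng3) and limma voom also called 0 lower. In whole retina, a change in the number of expressing cells and a change in RNA per cell cannot be told apart.

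**Figure D1:**
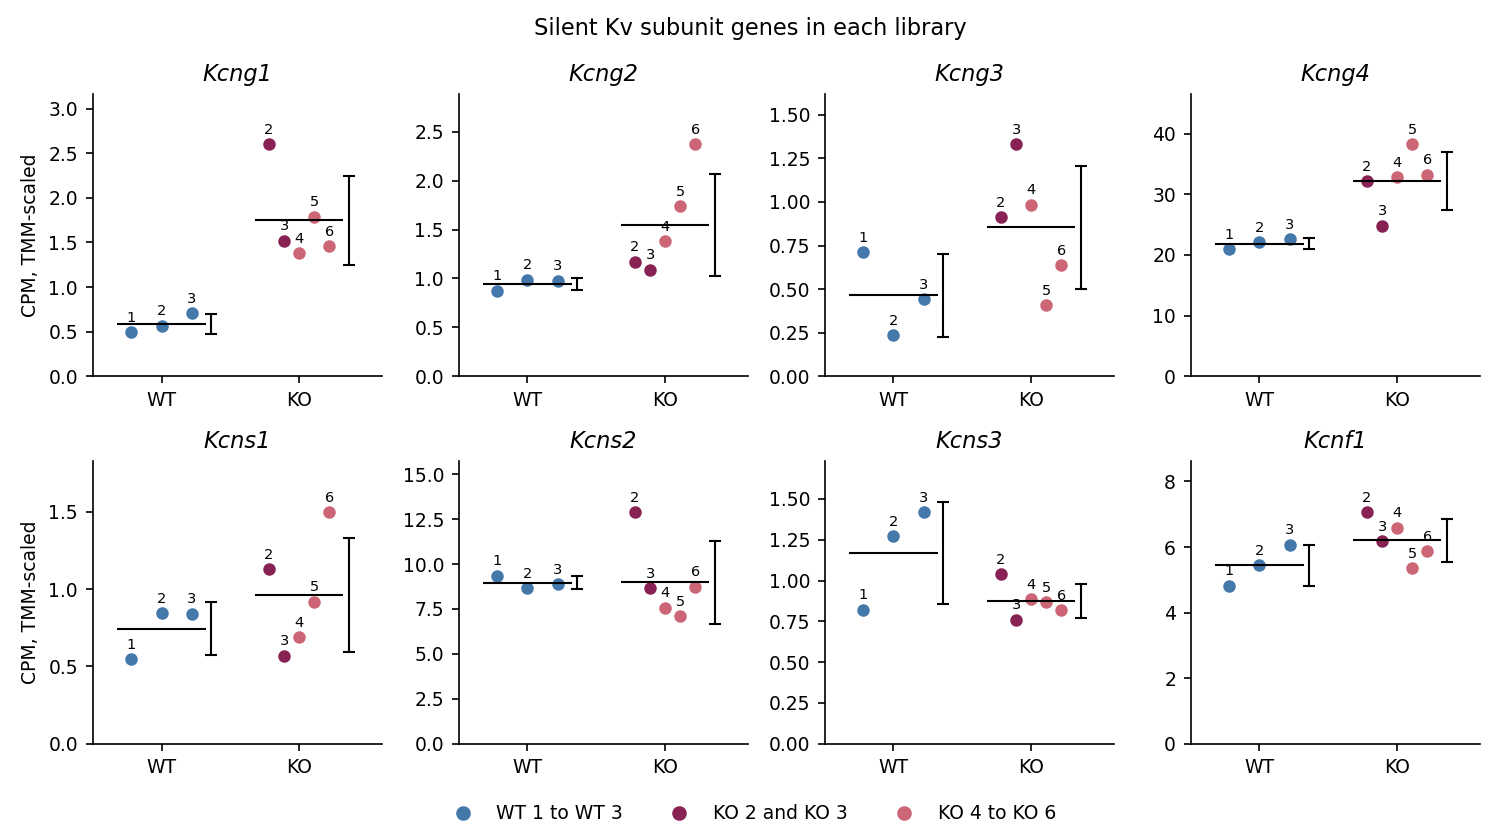
TMM-scaled CPM (linear axes from 0) of the 8 silent subunit genes in each library, numbered as in the labels; lines are means and bars beside them SD (n = 3 WT, n = 5 KO). Kcng1, Kcng2 and Kcng4 show every KO point above every WT point, and the other 5 genes overlap.

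Kcng1 encodes Kv6.1, which shifts the gating of a channel when joined with Kv2 subunits. The 3 WT libraries held 0.493, 0.564 and 0.709 CPM, and KO 2 to KO 6 held 2.6, 1.52, 1.38, 1.79 and 1.46 CPM. Every KO library was above every WT library, and the highest, KO 2, was well above the other 4. These levels rest on 9, 12 and 16 counts in WT and 28 to 60 in KO. Counting error alone gives 95% Poisson limits of 9.15 to 26 for the highest WT count and 18.6 to 40.5 for the lowest KO count, so those 2 libraries are not separated by counting alone. Mean levels were 0.589 ± 0.111 CPM for WT (SD, n = 3) against 1.75 ± 0.502 CPM for KO (SD, n = 5). This is a log2 fold change of 1.56 (SE 0.32, 95% interval 0.86 to 2.26), with an edgeR adjusted p of 0.0234, and all 5 KO libraries showed the direction. The call was lost without WT 1, WT 2, WT 3 or KO 5 (edgeR adjusted p 0.111, 0.113, 0.0763 and 0.057) and was made in 19 of 32 alternatives.

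Kcng4 encodes Kv6.4, which shifts the inactivation of Kv2 channels to more negative voltages, and a Kcng4 driver line is used to label alpha ganglion cells in the mouse retina. WT 1, WT 2 and WT 3 held 20.9, 22.1 and 22.6 CPM of it, while KO 2 to KO 6 held 32.1, 24.8, 32.8, 38.2 and 33.2 CPM. The WT libraries lay close together, and KO 3 was the KO library nearest to them, still above all 3. The WT mean of 21.8 ± 0.9 CPM (SD, n = 3) compares with a KO mean of 32.2 ± 4.8 CPM (SD, n = 5). The resulting log2 fold change was 0.56 (SE 0.13, 95% interval 0.27 to 0.85), with an edgeR adjusted p of 0.0344, in the direction of 5 of 5 KO libraries. The call was lost with library size alone (log2 fold change 0.53, edgeR adjusted p 0.053), with a GC content offset (0.33, edgeR adjusted p 0.061) and without any one of 6 of the 8 libraries. It was made in 14 of 32 alternatives.

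Because Kcng4 was the best measured of the genes that rose, the 300 bases around its start (250 before and 50 from it on) are shown, from RefSeq on GRCm38.p6, minus strand, chr8:119635631-119635930. The table of promoters held 5 of the 8 members, Kcnf1, Kcng3, Kcng4, Kcns1 and Kcns3. It was searched on both strands for TAATCC (the core bound by the photoreceptor factors CRX and OTX2), TGANTCA (AP-1), TTCNNNGAA (STAT), TGACGTCA (the cyclic AMP response element) and GGGCGG (the GC box). The capitals mark the one match in Kcng4, a TAATCC from 5 bases before the start to base 1.
Kcng4: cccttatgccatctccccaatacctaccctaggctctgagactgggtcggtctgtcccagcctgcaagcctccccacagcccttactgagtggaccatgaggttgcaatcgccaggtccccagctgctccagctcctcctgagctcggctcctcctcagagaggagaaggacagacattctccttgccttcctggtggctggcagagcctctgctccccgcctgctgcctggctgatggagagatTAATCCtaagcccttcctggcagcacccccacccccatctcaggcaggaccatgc
TAATCC occurred in 7.06% of the 32851 promoters searched, and in 0 of the windows of the other 4 members. TGANTCA, TTCNNNGAA and TGACGTCA occurred in 7.81%, 8.3% and 1.79% of promoters and in none of the 5 members' windows. No searched motif overlapped another in Kcng4. GGGCGG occurred in 35.7% of promoters, with 4 matches for Kcng3, 2 for Kcns1 and 4 over both windows of Kcns3. These matches describe letters only, and binding was not measured.

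Kcng2 encodes Kv6.2, a subunit known from heart. Levels were 0.876, 0.986 and 0.975 CPM for the WT libraries in order, and 1.17, 1.09, 1.38, 1.74 and 2.37 CPM for KO 2 to KO 6. The groups did not overlap, but KO 2 and KO 3 were close to WT and KO 6 was the highest. The log2 fold change of 0.71 (SE 0.31, 95% interval 0.01 to 1.40) was not called, with an edgeR adjusted p of 0.176. It was called by limma voom with quality weights (0.79, adjusted p 0.0306), where 20.3% of all genes were called higher. With KO 4 to KO 6 alone against WT it was also called (0.96, edgeR adjusted p 0.0247), where 22.3% of all genes were. It was 0.26 with KO 2 and KO 3 alone (edgeR adjusted p 0.736).

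Kcng3 encodes Kv6.3, a brain subunit that slows the gating of Kv2 channels. It was near the lower end of detection, with 13, 5 and 10 counts in WT 1 to WT 3 and 21, 28, 20, 8 and 14 in KO 2 to KO 6. That is 0.235 to 0.712 CPM in WT and 0.408 to 1.33 CPM in KO, so the groups overlapped, with KO 5 and KO 6 inside the WT range. The count of 5 in WT 2 has 95% Poisson limits of 1.62 to 11.7. The log2 fold change of 0.89 (SE 0.48, 95% interval -0.16 to 1.95) was not called (edgeR adjusted p 0.251). It was 0.58 without WT 2 and 1.31 without WT 1.

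The Kv9 genes gave no call in either direction. For these 3 genes, 0 reached an unadjusted p under 0.05 with edgeR, DESeq2 or limma voom. Kcns2 (Kv9.2) was the Kv9 gene with the most counts, with 9.36, 8.64 and 8.87 CPM for WT 1 to WT 3 and 12.9, 8.64, 7.57, 7.09 and 8.73 CPM for KO 2 to KO 6. KO 2 was above WT, KO 3 and KO 6 lay inside or at the edge of the WT range and KO 4 and KO 5 lay below it. Its log2 fold change was 0.01 (SE 0.19, 95% interval -0.41 to 0.43, edgeR adjusted p 0.986), and -0.04 with library size alone.

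Kcns1 (Kv9.1), a subunit of sensory and brain neurons, was at 0.547 to 0.845 CPM in WT. KO 2 to KO 6 held 1.13, 0.57, 0.688, 0.919 and 1.5 CPM, with KO 3 and KO 4 inside the WT range and the other 3 above it, for a log2 fold change of 0.36 (SE 0.38, 95% interval -0.47 to 1.19, edgeR adjusted p 0.565). It was 0.14 without KO 6 and 0.19 without WT 1. Kcns3 (Kv9.3), known from cortical interneurons and arterial muscle, was the one member with a lower mean in KO. It stood at 0.821, 1.27 and 1.42 CPM in WT and at 0.76 to 1.04 CPM in KO, with WT 1 inside the KO range. Its log2 fold change was -0.42 (SE 0.28, 95% interval -1.04 to 0.19, edgeR adjusted p 0.352).

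Kcnf1, the sole gene of the Kv5 family, was at 4.82, 5.45 and 6.07 CPM in WT and at 7.07, 6.17, 6.59, 5.36 and 5.87 CPM in KO 2 to KO 6. The groups overlapped, with KO 5 and KO 6 inside the WT range. Its log2 fold change was 0.19 (SE 0.15, 95% interval -0.15 to 0.52, edgeR adjusted p 0.45). The intervals of Kcnf1 and Kcns2 do not reach a log2 change of 1 in either direction, while those of Kcng2, Kcng3 and Kcns1 do, and that of Kcns3 reaches it for a fall.

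Every KO library lay above every WT library for 3 of the 8 members (Kcng1, Kcng2 and Kcng4) and below for 0. Among all genes tested, 10.8% lay wholly above and 10.1% wholly below. The median log2 fold change of the 8 members was 0.46, and that of all genes tested was 0.00. The members were chosen with earlier results of these libraries known, so these counts describe them and carry no test of the group.

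The calls depended on the libraries. In KO 2 and KO 3 against WT, 0 of the 8 members were called (edgeR), and Kcng1, Kcng3 and Kcng4 had an unadjusted p under 0.05. Of all genes, 0.624% were called higher in that comparison. The log2 fold change of Kcng1 was 1.79 (SE 0.39, edgeR adjusted p 0.084), that of Kcng3 was 1.28 (SE 0.53, edgeR adjusted p 0.24) and that of Kcng4 was 0.38 (SE 0.13, edgeR adjusted p 0.183). In KO 4 to KO 6 against WT, Kcng1 was at 1.38 (SE 0.33, edgeR adjusted p 0.00469) and Kcng4 at 0.68 (SE 0.08, edgeR adjusted p 3.7e-05), where 22.3% of all genes were called higher. Both comparisons use the same 3 WT libraries, and the difference between them was not tested. In the values, Kcng1 and Kcng3 were higher in the first set and Kcng2 and Kcng4 in the second. For Kcng1 this rests on KO 2, since KO 3 (1.52 CPM) lay inside the range of KO 4 to KO 6 (1.38 to 1.79 CPM).

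**Figure D2:**
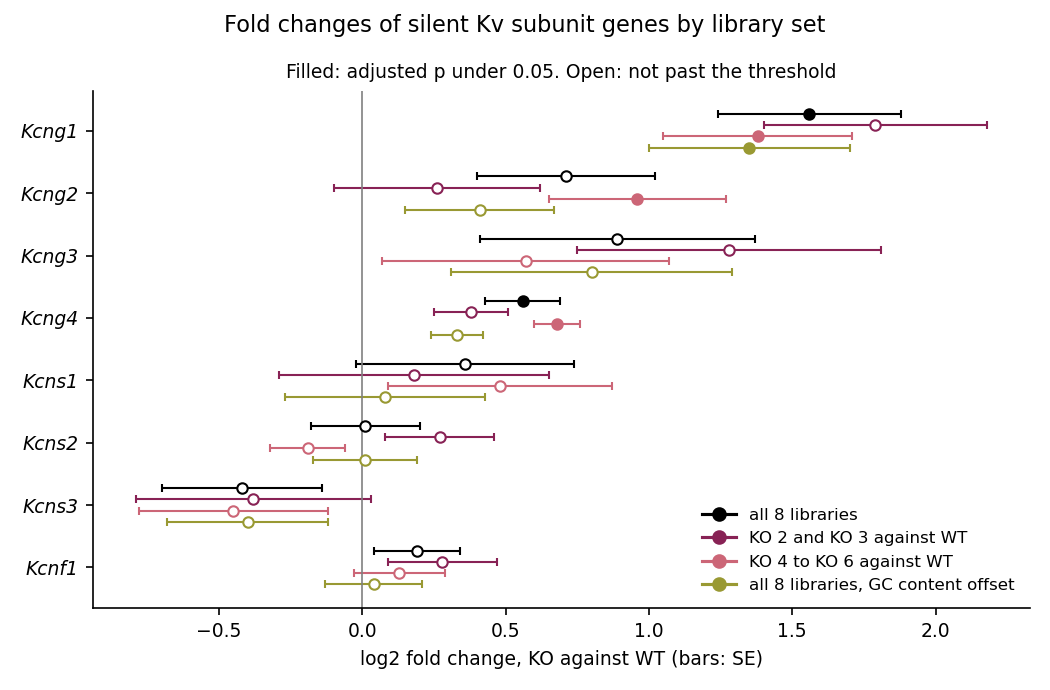
Log2 fold change (x axis, bars SE) of each silent subunit gene with all 8 libraries, with KO 2 and KO 3, with KO 4 to KO 6, and with all 8 after an offset for GC content; filled points passed an edgeR adjusted p of 0.05. Kcng1 lies above 1 in all 4 (1.35 to 1.79), and Kcng4 moves between 0.33 and 0.68.

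Since the authors' 3 KO samples are not named, each of the 10 selections of 3 KO libraries was fitted against WT. Kcng1 had a log2 fold change of 1.29 to 1.73 and was called in 5, with edgeR adjusted p values of 0.00469 to 0.108. Kcng4 had 0.45 to 0.68 and was called in 4, with edgeR adjusted p values of 3.7e-05 to 0.182. Kcng2 was called in 1 of the 10. Over all genes, 0.417% to 22.3% were called higher in these selections. The 4 Kv6 genes were above 0 in all 10 selections, Kcns3 was below 0 in all 10, and Kcns2 was above 0 in 6. For Kcng1, Kcng2 and Kcng4 the sign could hardly differ, since every KO library lay above every WT library. The selections also share libraries, so these signs are no independent results.

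**Figure D3:**
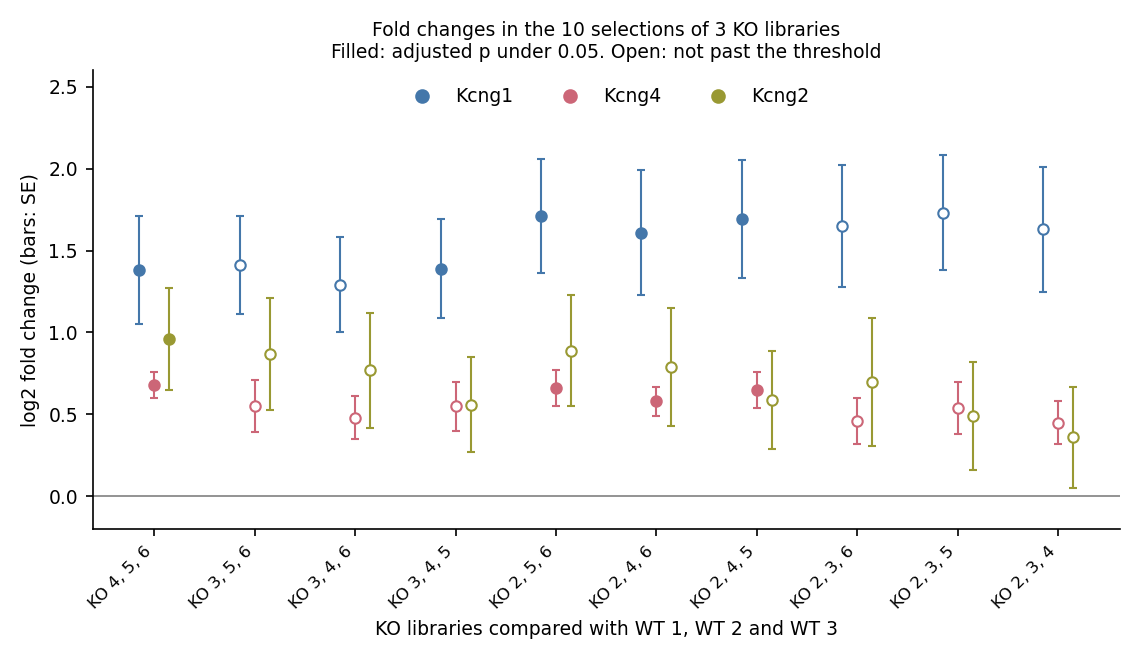
Log2 fold change (y axis, bars SE) of Kcng1, Kcng2 and Kcng4 for each selection of 3 KO libraries against the 3 WT libraries; filled points passed an edgeR adjusted p of 0.05. Kcng1 was called in 5 selections, Kcng4 in 4 and Kcng2 in 1. All points lie above 0, a sign set by KO libraries that all exceed the WT libraries for these genes.

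Leaving out a single library, Kcng1 lost the call in 4 of 8 fits. Kcng4 lost it without any one library except KO 2 or KO 3, with edgeR adjusted p values of 0.0681 to 0.148 in those 6 fits. Fold changes moved less than calls, with 1.37 to 1.71 for Kcng1 and 0.49 to 0.65 for Kcng4 over the 8 fits on the log2 scale. Of the members not called, Kcng2 moved between 0.50 and 0.82, Kcns2 between -0.16 and 0.08, Kcns3 between -0.62 and -0.26 and Kcnf1 between 0.11 and 0.27. The same fits called between 132 and 3992 of all genes.

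Some of these values moved with a correction for base composition. The longest transcripts of Kcng1, Kcng2 and Kcng4 hold 57.6%, 61.5% and 57.4% G and C, and those of Kcns2 and Kcns3 hold 48.2% and 47.6%. With each library corrected for GC content, the log2 fold change of Kcng4 went from 0.56 to 0.33 (SE 0.09) and was not called. That of Kcng1 went to 1.35 and was still called (SE 0.35, edgeR adjusted p 0.0442), and that of Kcng2 went from 0.71 to 0.41. Kcns1, at 60.9% G and C, went from 0.36 to 0.08, and Kcnf1, at 54.2%, from 0.19 to 0.04. Kcng3, at 52.2%, moved little, from 0.89 to 0.80.

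Levels of different genes were compared as CPM per kb of the longest annotated transcript. On this scale the most abundant member in WT was Kcng4, with 5.74 ± 0.236 CPM per kb (SD, n = 3), followed by Kcns2 (1.64 ± 0.0674), Kcnf1 (1.14 ± 0.131), Kcns3 (0.399 ± 0.106), Kcng2 (0.336 ± 0.0216), Kcns1 (0.275 ± 0.0631), Kcng1 (0.144 ± 0.027) and Kcng3 (0.138 ± 0.0712). Kcng4, Kcns2 and Kcnf1 were separated from each other and from the rest in WT. Kcns3, Kcng2 and Kcns1 overlapped from neighbour to neighbour, and so did Kcng1 and Kcng3, while every WT value of Kcng1 lay below every WT value of Kcns1. In KO the order was Kcng4 (8.46 ± 1.26 CPM per kb, SD, n = 5), Kcns2 (1.65), Kcnf1 (1.3), Kcng2 (0.55), Kcng1 (0.427), Kcns1 (0.354), Kcns3 (0.298) and Kcng3 (0.254), in which Kcns2 and Kcnf1 overlapped and so did neighbours from Kcng2 down. By mean level per kb, Kcng1 moved from the seventh to the fifth place and Kcns3 from the fourth to the seventh. With the median transcript length in place of the longest, Kcng4 was still first, at 7.69 CPM per kb in WT, and Kcng2 came to 1.54 in WT, above Kcnf1 and Kcns3, and to 2.51 in KO, above Kcns2 (1.73) as well. Under that length Kcng1 again moved from the seventh to the fifth place, and Kcns3 from the fifth to the sixth.

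Together the 8 members came to 9.33, 9.82 and 10.3 CPM per kb in the WT libraries and 14.4, 11, 13.1, 14.3 and 13.8 CPM per kb in KO 2 to KO 6. Kcng4 alone made up 57.8% to 59% of that sum in WT. For KO 2 and KO 3 the share was 58.7% and 59.1%, while KO 4 to KO 6 gave 66%, 70.3% and 63.4%.

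**Figure D4:**
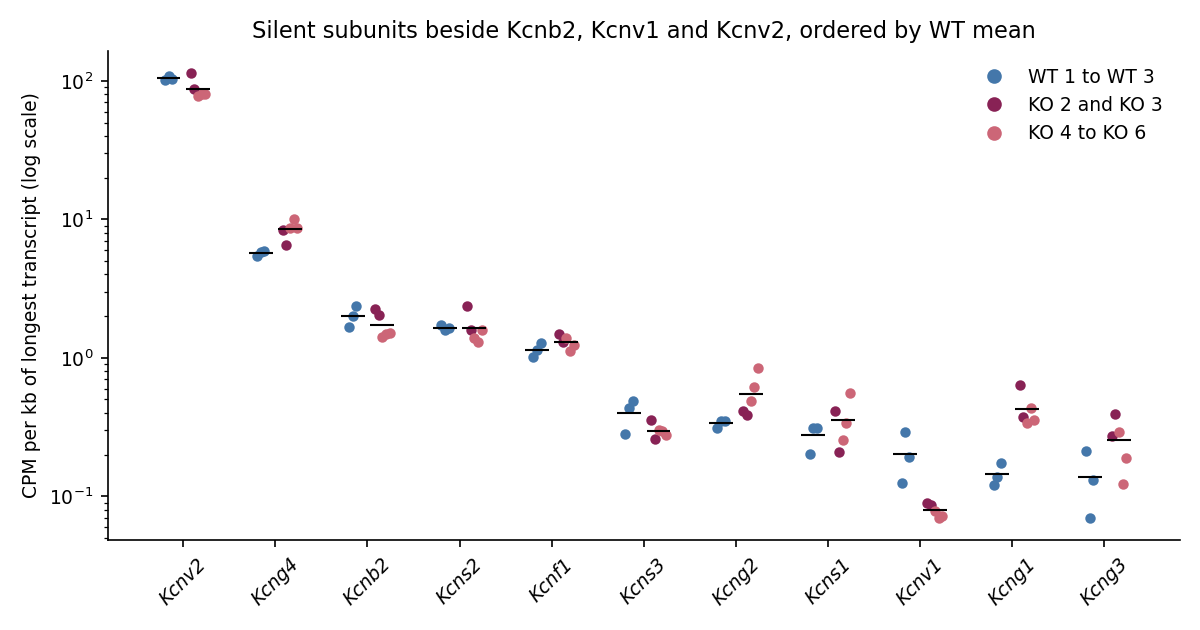
CPM per kb of the longest transcript (log axis) of the 8 silent subunits and of Kcnb2, Kcnv1 and Kcnv2, in order of the WT mean; points are libraries and lines group means. Kcnv2 lies above 70 in every library, Kcng4 between 5.48 and 10, and all other genes below 3.

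Kcnv2 (Kv8.2) was far more abundant than any of the 8 members, at 104 ± 3.23 CPM per kb in WT (SD, n = 3) and 87.9 ± 15.2 in KO (SD, n = 5), and its range stood above that of Kcng4 in both groups. Kcnb2, which encodes the Kv2 subunit Kv2.2, was at 2.01 ± 0.344 CPM per kb in WT (SD, n = 3) and 1.74 ± 0.378 in KO (SD, n = 5), below Kcng4 and overlapping Kcns2 in both groups. Kcnv1 (Kv8.1) was at 0.202 ± 0.0825 and 0.0792 ± 0.0084 CPM per kb. By mean it lay between Kcns1 and Kcng1 in WT, overlapping both, and below every member in KO. With the median transcript length it was above Kcns1 in WT (0.307 against 0.275 CPM per kb). The 4 Kv6 genes together came to 6.36 ± 0.235 CPM per kb in WT and 9.7 ± 1.28 in KO, with every KO library above every WT library. Kcng4 alone is 5.74 and 8.46 CPM per kb of these means, so the sum mostly restates Kcng4. The 3 Kv9 genes came to 2.31 ± 0.112 and 2.3 ± 0.508 CPM per kb, and overlapped.

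Further genes were Kcnb2, the Kv8 genes Kcnv1 and Kcnv2, and 3 genes of proteins that bind Kv2 channels. Of these 6, 0 were called in either direction with edgeR and all 8 libraries. In that fit an unadjusted p under 0.05 was found for Amigo1 among those higher and for Kcnv1 and Vapa among those lower. With KO 4 to KO 6 alone edgeR called 1 higher (Amigo1) and 4 lower (Kcnb2, Kcnv1, Kcnv2 and Vapa). The shares over all genes were then 22.3% higher and 20.5% lower. With KO 2 and KO 3 alone it called 0 of the 6. DESeq2 called 0 of the 5 for which it gave an adjusted p, which leaves out Kcnv1, and limma voom called 1 higher (Amigo1) and 4 lower (Kcnb2, Kcnv1, Kcnv2 and Vapa), where it called 20.3% of all genes higher and 20.6% lower. Kcnv1, the other Kv8 subunit, had 10, 27 and 19 counts in WT 1 to WT 3 and 9, 8, 7, 6 and 7 in KO 2 to KO 6. All KO values were below all WT values in CPM, and the log2 fold change was -1.34 (SE 0.36, edgeR adjusted p 0.0511). Kcnv1 was called in 6 of 30 alternatives, among them library size alone (-1.37, edgeR adjusted p 0.0486) and without KO 3 (-1.36, edgeR adjusted p 0.0382). Without WT 2 it was at -0.99 (edgeR adjusted p 0.253). Kcnb2 (log2 fold change -0.21, edgeR adjusted p 0.472) and Kcnv2 were not called by edgeR with all 8 libraries. In the same fit neither were Amigo1, an accessory protein of Kv2 (0.26, edgeR adjusted p 0.143), and Vapa and Vapb, membrane proteins that hold Kv2 clusters to the endoplasmic reticulum (-0.47 and 0.06, edgeR adjusted p 0.131 and 0.698).

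The 28 other Kv alpha subunit genes, of the Kv1, Kv3, Kv4, Kv7 and Kv10 to Kv12 families, were represented by 23 tested genes. Of these, 1 was called higher and 0 lower, and the median log2 fold change was 0.09. At an unadjusted p under 0.05, edgeR had 6 higher and 0 lower. DESeq2 called 4 higher and 0 lower, where it called 11.3% and 6.18% of all genes. Limma voom called 9 higher and 1 lower, where the shares over all genes were 20.3% and 20.6%. With KO 4 to KO 6 alone edgeR called 10 higher and 1 lower, where the shares were 22.3% and 20.5%. The count of 1 of 23 higher with all libraries is near the 4.74% of all genes. The gene called by edgeR with all libraries was Kcnc1 (Kv3.1), a subunit of fast-spiking neurons, which was at 129 to 150 CPM in WT and 195 to 250 CPM in KO (log2 fold change 0.64, SE 0.11, edgeR adjusted p 0.0101). It was not called without WT 1 or without WT 2 (edgeR adjusted p 0.0646 and 0.0773). The difference between the silent subunits and these genes was not tested.

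**Figure D5:**
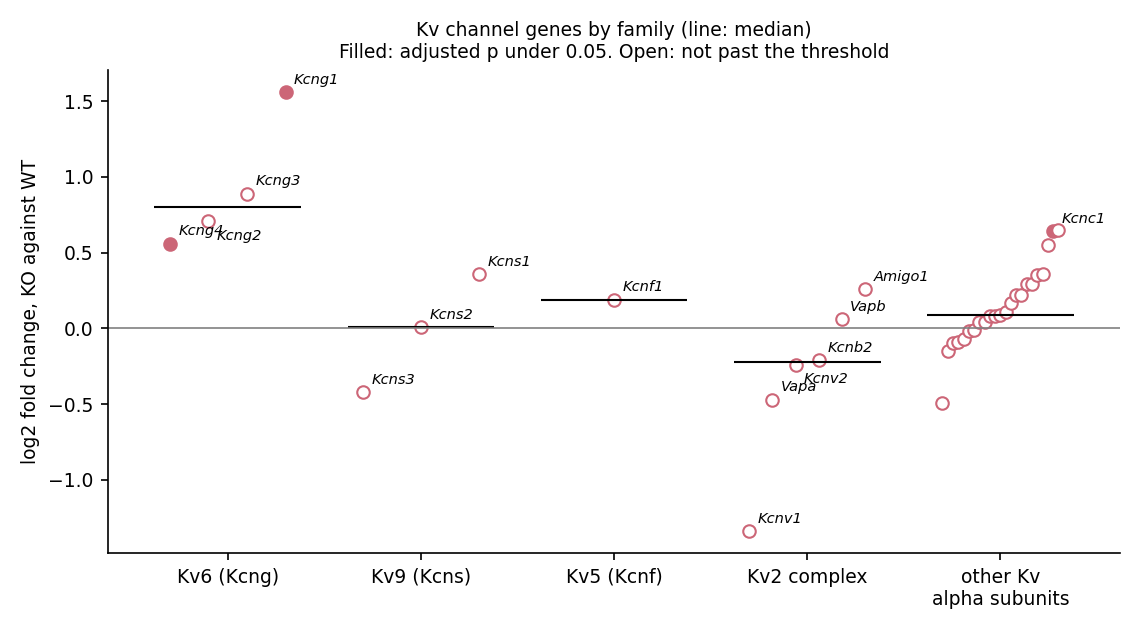
Log2 fold change (y axis) of each tested gene with all 8 libraries, by family; filled points passed an edgeR adjusted p of 0.05 and lines are medians. The Kv6 genes lie between 0.56 and 1.56 with 2 of 4 filled, 0 points are filled among the 6 genes of the Kv2 complex and 1 among the other Kv alpha genes.

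For the called members, the genes with the most similar profile were found as the smallest root mean square difference of log2 CPM, each gene centred on its own mean, over the 8 libraries and 12804 genes. For Kcng1 these were Gfap (0.24), the intermediate filament of reactive glia, Hk2 (0.26), a hexokinase, and Ifit1 (0.27), an interferon-induced gene, where the median gene differed by 0.74. Gfap went from 19.1 to 20.7 CPM in WT to 47.3 to 78.2 CPM in KO, with KO 2 highest and KO 3 lowest. Kcng1 was also highest in KO 2 but lowest in KO 4 (1.38 CPM, against 1.52 CPM in KO 3). For Kcng4 they were Clip2, Ap1b1 and Lasp1 (0.04 each), where the median gene differed by 0.339. Clip2 went from 44.8 to 49.9 CPM in WT to 53.5 to 76.8 CPM in KO, with KO 3 lowest and KO 5 highest. The profiles share libraries and depth, so a small difference describes likeness only. Kcng1 rests on 9 to 16 counts in WT and 28 to 60 in KO, so counting error enters its distances and their order is not resolved.

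Some cell type marker lists moved with the same libraries. The summed level of the 7 microglia markers was 28.2 to 30.8 CPM in WT and 34.7 to 48.2 CPM in KO, and that of the 7 endothelial and pericyte markers was 221 to 237 and 305 to 382 CPM. The 7 Muller glia markers summed to 3097 to 3306 CPM in WT and 3257 to 4770 CPM in KO, with 3 of 7 called higher. The sum of the 7 cone markers was 938 to 1175 CPM in WT and 675 to 897 CPM in KO, with 3 called lower and 1 called higher. That of the 4 horizontal cell markers was 114 to 118 and 77.2 to 113 CPM, with 1 called lower and a median log2 fold change of 0.04. The sums of rod (7 genes), bipolar (7), amacrine (7) and ganglion cell (7) markers overlapped between groups. So did that of 4 further ganglion cell genes, Spp1, Nefh, Opn4 and Eomes, at 110 to 134 CPM in WT and 126 to 184 CPM in KO. Of these, 1 was called lower and 0 higher, with a median log2 fold change of 0.22. They were not taken as a measure of alpha ganglion cells alone. No marker of these lists was at 3 counts or fewer in every library, and the part of cell composition in the rise of Kcng1 and Kcng4 was not tested.

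Of other tissues, the 7 pigment epithelium markers summed to 57.4 to 72.1 CPM in WT and 67.5 to 113 CPM in KO. These groups overlapped, with 0 called in either direction and a median log2 fold change of -0.33. Of the muscle list 3 of 7 genes were in the table, at 2.88 to 4.27 and 2.46 to 4.13 CPM, and the 6 corneal and conjunctival genes summed to 4.13 to 35.4 and 0.455 to 14.3 CPM. With the 16 lens genes removed, Kcng1 and Kcng4 had the same calls (edgeR).

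Positions are those of GENCODE M21 on GRCm38, the build named in the submitters' processing notes. Kcng1 (ENSMUSG00000074575) lies on chromosome 2 at 168260117 to 168281736, and Kcns1 (ENSMUSG00000040164) on the same chromosome at 164163619 to 164171113. Kcng4 (ENSMUSG00000045246) lies on chromosome 8 at 119623854 to 119635680. Kcng3 (ENSMUSG00000045053) lies on chromosome 17 at 83585957 to 83631895. Kcns2 (ENSMUSG00000050963) lies on chromosome 15 at 34837355 to 34843407. Kcnf1 (ENSMUSG00000051726) and Kcns3 (ENSMUSG00000043673) lie on chromosome 12, at 17172100 to 17176888 and 11090202 to 11151056. Kcng2 is ENSMUSG00000059852. The table holds one value per gene, so isoforms were not resolved.

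Reads could be shared between genes for a few members. Of the 31-base words of Kcng2, 6.33% also occur in another gene, and Kcng2 overlaps Gm37015 on its own strand and Gm26676 and D330025C20Rik on the other. Kcns3 overlaps Gm48088 on the other strand. Whether strand was used in counting is not given in the sources used here, so the counts of Kcng2 and Kcns3 are uncertain to that extent. For the other 6 members at most 0.0447% of words were shared, and the annotation shows no gene overlapping them.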

How the data were processed

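The authors deposited one table of whole-number estimated counts per gene (26824 genes, 8 libraries). The submitters' processing notes name Trim Galore, Salmon 1.10.2, DESeq2 and the build GRCm38, without their roles. The annotation release, rounding and strand setting are not given in the sources used here. The lowest total of a gene over the libraries is 16 counts.

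Counts were scaled by TMM (trimmed mean of M values) in edgeR 4.0.16 (R 4.3.3), filtered with filterByExpr (20167 genes, all 8 members kept), and KO was compared with WT by edgeR's quasi-likelihood test with no covariate. P-values were adjusted over all genes by the Benjamini-Hochberg method, with a threshold of 0.05. Each SE is the size of the log2 fold change divided by the root of F. DESeq2 1.42.0 and limma 3.58.1 (voom) were alternatives. A simulation of KO against WT with 8 libraries held 200 genes changed 2-fold among 20124 tested. It recovered 99 of the 200 (49.5%) and called 4 other genes, so the lack of a call alone does not exclude a 2-fold change. A floor of 3 counts corresponds to 0.119 to 0.169 CPM by library, and a CPM refers to 1000000 counts. Poisson limits and floors cover counting error only.

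The members, lists and tests were chosen with earlier results of these data known. Named genes are the 8 members, the Kv2 complex list (6 genes, with another gene of the list not reported here), called genes of the other Kv list, and for each called member the 3 genes of nearest profile with a mean log2 CPM (prior count 2) of at least 1, leaving out Gm and Rik symbols. GENCODE M21 matched 22121 of the 26824 genes and gave lengths and GC content. Within each group every 2 libraries differed beyond sampling noise (chi-square per degree of freedom 5.38 to 100). Retinas came from individual mice, per the labels' protocols. Alternatives were other scalings, filters and tools, left-out libraries, offsets for GC content and length, and the replicate number as a block.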

Additional observations from a re-analysis of the deposited data

Results flagged for a closer look

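For 18 gene and summed levels of the 5 KO libraries, the gap between the highest or lowest library and its neighbour was set against the range. A gap above 0.71 of the range was found for 2 of them, and about 1 in 20 such groups, here 0.9, passes by chance. Kcns2 in KO 2, at 12.9 CPM, lay 0.717 of the range above the next KO library. Kcnv2 in KO 2, at 584 CPM, lay 0.738 of the range above the next.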

How the results depend on the processing

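Of 252 refits of the 8 silent subunits' fold changes, 219 stayed on the same side of the threshold, 31 lost a call, 2 gained one and 0 reversed a called direction. Kcng1 was above 0 in all 32 of its alternatives (1.29 to 1.79, called in 19) and Kcng4 in all 32 of its own (0.33 to 0.68, called in 14). As every KO library was above every WT library for both genes, leaving out libraries could hardly change the sign. With 1 or 2 libraries left out, calls ranged from 0 to 3 silent subunits, 0 to 5 Kv2 complex genes, 0 to 11 other Kv alpha genes and 118 to 8416 of all genes. The main counts were 2, 0, 1 and 1529. Library size alone gave 41.8% of calls higher, 1 silent subunit and 1 Kv2 complex gene, the GC offset 1 silent subunit, and the transcript length offset 1 Kv2 complex gene. DESeq2 called 3034 genes and 4 other Kv alpha genes. Limma voom called 8248 genes (49.5% higher, against 62.5%), 5 Kv2 complex genes and 10 other Kv alpha genes. KO 2 and KO 3 against WT gave 180 genes and 0 in each of the 3 lists. Replicate numbers 2 and 3 occur in both groups, but nothing in the labels ties equal numbers to a shared litter or day, and deviations of same-numbered libraries correlated at -0.19. The replicate block over these 4 libraries called 52 genes, the same libraries without it 14, and the crossed block, chosen after seeing the data, 527, each with 0 in all 3 lists. The cause of these shifts was not tested. Levels per kb moved beyond 1 SD in 12 of 44 cases, all with the median transcript length. Counts of 5 to 60 a library limit Kcng1, Kcng2, Kcng3, Kcns1, Kcns3 and Kcnv1.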
